A study of Dunaliella viridis with 39 samples.

Results

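The 29 loci described here are those of Dunaliella viridis whose transcripts were lower 3 h after transfer of the cells in every medium tried, whatever nitrogen the medium held. They are 29 of the 18495 loci in the deposited tables, and 29 of the 9347 loci with a mean of at least 50 scaled counts in the inoculum. A scaled count is a deposited read count divided by a size factor of its library. A locus was chosen when its mean of 3 libraries fell at least 2-fold from the inoculum to 3 h in all 4 media, with 10 added to each mean, so that the log2 ratio was -1 or lower. It also had to differ by less than 2-fold between no nitrogen and nitrate at 27 h, to gain less than 2-fold in nitrate from 3 to 51 h, and to be less than 2-fold lower in glutamine than in nitrate at 3 h. The values in the inoculum, in the 4 media at 3 h, in nitrate and no nitrogen at 27 h and in nitrate at 51 h therefore chose the loci, and they are given as a description with no test.

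Dunaliella viridis strain dumsii is a single-celled green alga found in salt water. Cells of a culture grown on nitrate, the inoculum, were spun at 3500 g for 6 min and resuspended in 450 ml of new medium at a set cell density. The medium contained nitrate, glutamine or glutamate at 5 mM or had no nitrogen source. The labels describe glutamate as a stable amino acid that the cells did not use, which made it a control for starvation. All cultures had continuous light of 125 µmol photons at 23.5 °C and were sampled at 3, 27 and 51 h, which with the inoculum gave 13 groups of 3 libraries, 39 in all. Each group held 1 library from each of 3 repeats of the experiment, and the replicate number is the repeat. No group stayed in its old medium for 3 h, so spinning, dilution, fresh medium and time since sampling of the inoculum cannot be told apart. A level is a share of the RNA of a whole culture, so less transcript in every cell and the same transcript in fewer cells cannot be told apart either.

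In green algae nitrate is reduced to ammonium, which is built first into glutamine and then into glutamate. Genes of this pathway and of nitrogen starvation are known to follow the nitrogen in the medium, while the 29 loci were chosen for a fall that the media shared. Loci carry numbers and no gene names in the deposited tables, so no function is given to any of them, and no sequence of these loci was used here.

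The libraries held between 3342102 and 41114965 counts, 10192407 at the median, and all 29 loci were among the 17569 that passed the filter on low counts. Libraries of replicate 1 were sequenced in run 1 and those of replicate 3 in run 2, while replicate 2 was divided between the runs. In replicate 2 the inoculum was in run 2 and the 3 h libraries in run 1. From an earlier account of all loci 3 libraries were known to stand apart from their groups, nitrate 3 h replicate 2, glutamate 51 h replicate 3 and no nitrogen 51 h replicate 1. Of the 9347 loci 2.39%, 2.33% and 8.55% were at least 2-fold above or at least 2-fold below both other libraries of the group there. By this measure no nitrogen 27 h replicate 3 stood at 3.44% and inoculum replicate 3 at 2.09%, and every other library lower. Without no nitrogen 27 h replicate 3 the rule gave 27 loci, all among the 29. Without the 3 libraries the tests below called 11 of the 29 loci for glutamine against glutamate at 27 h, 11 at 51 h, 11 for glutamine against no nitrogen, 0 for no nitrogen against glutamate, and 13 and 0 for 51 h against 27 h in glutamine and glutamate.

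At 3 h the 29 loci stood at a median of 2.92-fold below the inoculum in nitrate, 2.76-fold in glutamine, 3.13-fold in glutamate and 3.10-fold without nitrogen. Without nitrate 3 h replicate 2 the median in nitrate was 2.97-fold. The 4 transfers share the same 3 inoculum libraries, so these values are not independent of each other. A fall of 2-fold or more was uncommon among the 9347 loci: 1.03% had one in nitrate, 1.75% in glutamine, 0.824% in glutamate and 0.824% without nitrogen. In all 4 media together 54 of the 9347 loci had one, 0.578%, and the rule used these contrasts, so the count of 29 says nothing further. The median of the 9347 loci was near no change in each transfer, from -0.03 to 0.01 on the log2 scale.

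Of the 54 loci, 25 were left out by the other conditions. No nitrogen against nitrate at 27 h removed 19 of them, 14 that were higher without nitrogen and 5 that were lower. A gain in nitrate from 3 to 51 h removed 9, and the comparison of glutamine with nitrate at 3 h removed 1. More than 1 condition was failed by 4 loci. The 29 are thus the loci whose fall was shared by the media and whose level at 27 h differed by less than 2-fold between no nitrogen and nitrate, as the rule demands. Their log2 ratios of no nitrogen to nitrate at 27 h ran from -0.81 to 0.95.

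**Figure D1:**
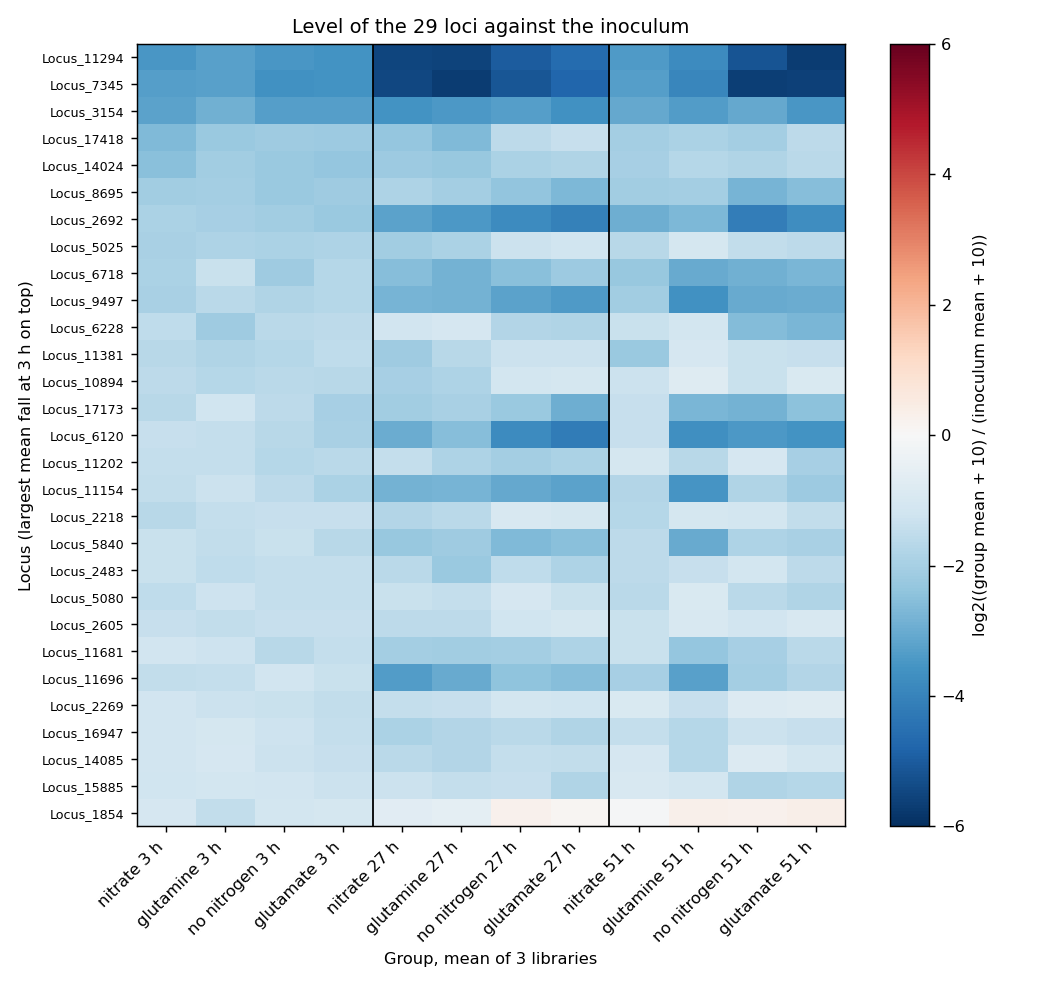
Level of each of the 29 loci (rows, largest mean fall at 3 h on top) in each medium and time (columns) as log2 of the group mean over the inoculum mean, 10 added to each; blue is lower and red is higher than the inoculum. The 3 h columns are blue in all rows by choice of the loci, and Locus_1854 at the bottom is the row with red cells at 27 and 51 h.

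The media differed little from each other at 3 h. For a given locus the highest and lowest of the 4 log2 ratios lay 0.33 apart at the median, with a range of 0.09 to 0.80, and for 22 of the 29 loci they lay less than 0.5 apart. The lowest medium was nitrate for 7 loci, no nitrogen for 6, glutamine for 6 and glutamate for 10. The rule itself bounds 1 of these contrasts, glutamine against nitrate, which ran from -0.58 to 0.59. Its demand for a fall in all 4 media also favours loci alike in the media. Nor was the likeness of no nitrogen and glutamate to nitrate particular to the 29 loci. Of the 9347 loci, 0.0642% were at least 2-fold below nitrate without nitrogen at 3 h and 0.0107% at least 2-fold above. In glutamate the shares were 0.0107% and 0.0214%. For glutamine against nitrate, the range over the media and the lowest medium, no share of the 9347 loci is given here.

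The 2 loci with the lowest mean ratio at 3 h were Locus_11294 and Locus_7345, which were also the 2 most abundant in the inoculum, with mean TPM values of 518 and 457. TPM is a level that takes transcript length into account. Locus_11294 held 8908, 5130.1 and 5300.4 scaled counts in inoculum replicates 1, 2 and 3. At 3 h it held 863, 347 and 474 in nitrate, and 989, 458 and 523 in glutamine. Without nitrogen it held 734, 458 and 479, and in glutamate 706, 356 and 499.5. Every library at 3 h was thus far below every inoculum library, and replicate 1 was the highest in each of the 5 groups. The inoculum mean was 11.3-fold above nitrate, 9.68-fold above glutamine, 11.4-fold above no nitrogen and 12.2-fold above glutamate.

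Locus_7345 held 6278, 3766 and 3702 scaled counts in the inoculum. Its 3 h libraries had 645, 368 and 352 in nitrate, and 649, 340.3 and 423 in glutamine. They had 440.0, 296 and 329.7 without nitrogen, and 472, 253 and 377 in glutamate. No library at 3 h came near the inoculum, whose mean was 9.87-fold, 9.55-fold, 12.6-fold and 12.2-fold above the 4 media in that order. The profiles of Locus_7345 and Locus_11294 were alike, and whether they share reads as near-identical copies cannot be judged from the tables.

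At the other end, 2 loci lay just inside the limit. Locus_14085 held 73.0, 71.3 and 121 scaled counts in the inoculum and 29.9, 42.5 and 45.1 in glutamine at 3 h, its smallest fall, with a log2 ratio of -1.003. Locus_1854 held 301, 296 and 283 in the inoculum and 109.8, 193 and 117 in nitrate at 3 h, its smallest fall, at -1.02. The highest of those nitrate values, 193, came from a library that stood apart, and without it the ratio was -1.30. Just outside lay Locus_1957, at -0.97 in nitrate, and Locus_156, at -0.96 in nitrate. Their means were 447 in the inoculum and 223 in nitrate for the first, and 543 and 274 for the second.

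The loci ran from 57.8 to 6446 scaled counts in the inoculum with a median of 494, against a median of 147 over the 9347 loci. In TPM they ran from 5.42 to 518 with a median of 40.3, against 10.9. Their summed TPM was 2452 ± 195 in the inoculum (SD, n = 3). The 3 h sums were 777 ± 389 in nitrate, 589 ± 160 in glutamine, 553 ± 164 in glutamate and 648 ± 105 without nitrogen (SD, n = 3 each). The inoculum sums ran from 2266 to 2655 and lay above the highest at 3 h, 1192 in nitrate replicate 2, a library that stood apart. The other nitrate libraries had sums of 420.0 and 721. Transcript length relative to the other loci, read from counts and TPM in the same library, had a median of 0.817 for the 29 loci, 1.22 for the 9347 and 0.886 for all loci with a value. The middle range of the 29, from 0.614 to 1.21, overlapped that of the 9347, from 0.835 to 1.78.

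The order of inoculum and 3 h held in single libraries for nearly all loci, though the falls were smaller in repeat 2. Within repeat 2 the median log2 ratios of the 29 loci at 3 h ran from -1.46 to -1.36. They ran from -1.86 to -1.53 within repeats 1 and 3. In 28 of the 29 loci all 3 inoculum libraries lay above all 12 libraries of 3 h, which held for 4.49% of the 9347 loci, and the rule used these libraries. The exception, Locus_6718, is named because it was the only one after its values were seen. It held 136, 27.3 and 60.3 scaled counts in the inoculum, from 106, 13 and 104 reads, so that replicate 1 gave 60.8% of the sum. Its highest library at 3 h, glutamine replicate 1 with 40.4, lay above inoculum replicate 2.

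Inoculum replicate 2 stood lower for these loci. It was the lowest of the 3 inoculum libraries for 21 of the 29 loci and the highest for none, while 33.1% of the 9347 loci had their lowest value there. The median locus lay 0.10 and 0.12 above the inoculum mean on the log2 scale in replicates 1 and 3 and 0.32 below it in replicate 2, at -0.32. The library medians ran from -1.75 to -1.50 at 3 h, from -2.18 to -1.73 at 27 h and from -2.22 to -1.54 at 51 h. No library after transfer thus reached the inoculum range. Inoculum replicate 2 was sequenced in the other run than the 3 h libraries of its repeat, and the part of that in its lower values was not tested.

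**Figure D2:**
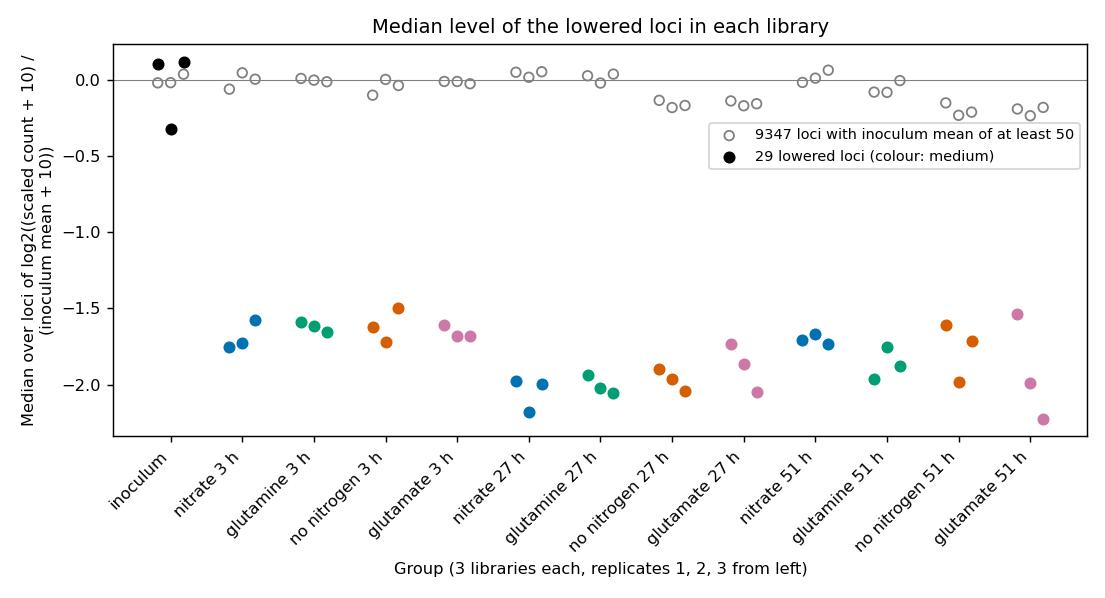
Median over the 29 loci (filled points) and over the 9347 loci with an inoculum mean of at least 50 scaled counts (open points) of the log2 ratio of each library to the inoculum mean; groups along the horizontal axis, 3 libraries each. Filled points lie between -2.22 and -1.50 after transfer and between -0.32 and 0.12 in the inoculum, while open points stay near 0.

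Within sequencing run 1, which held 1 inoculum library and 2 libraries of each medium at 3 h, the median log2 ratio was -1.68 in nitrate, -1.59 in glutamine, -1.84 in glutamate and -1.77 without nitrogen. Within run 2, with 2 inoculum libraries and 1 of each medium, it was -1.40, -1.58, -1.61 and -1.52 in the same order. The same libraries chose the loci, so negative medians in both runs were largely fixed by the choice. Scaling to the library total and the deposited TPM made the fall in nitrate smaller, with medians of -1.16 and -1.09 against -1.55, while the median of the 9347 loci moved to 0.36 and 0.40. Relative to that shift the 29 loci lay 1.51 and 1.49 lower in nitrate, at -1.51 and -1.49, against -1.55 with size factors.

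The choice favours loci that chanced to be high in the inoculum libraries, so the rule was also applied to 2 repeats at a time and the third was read. With repeat 1 left out it chose 26 loci, of which 22 are among the 29. In repeat 1 itself 25 of the 26 were below the inoculum in all 4 media and 18 were at least 2-fold below in all 4. With repeat 2 left out it chose 32 loci, 27 of them among the 29, and in repeat 2 all 32 were below and 18 at least 2-fold below in all 4 media. With repeat 3 left out it chose 24 loci, 22 of them among the 29, and in repeat 3 all 24 were below and 20 at least 2-fold below.

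Among all loci of sufficient inoculum level, 0.703%, 0.376% and 0.890% were at least 2-fold below in all 4 media in repeats 1, 2 and 3, and 29%, 24.2% and 39.0% were below at all. In the repeat left out the chosen loci had medians at 3 h between -1.80 and -1.45 in repeat 1, between -1.42 and -1.22 in repeat 2 and between -1.92 and -1.79 in repeat 3. The fall in repeat 2, whose inoculum stood lowest, was smaller than in the repeats that chose the loci, where the medians ran from -1.73 to -1.50. Each of these values rests on 1 library per group and carries no test.

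**Figure D3:**
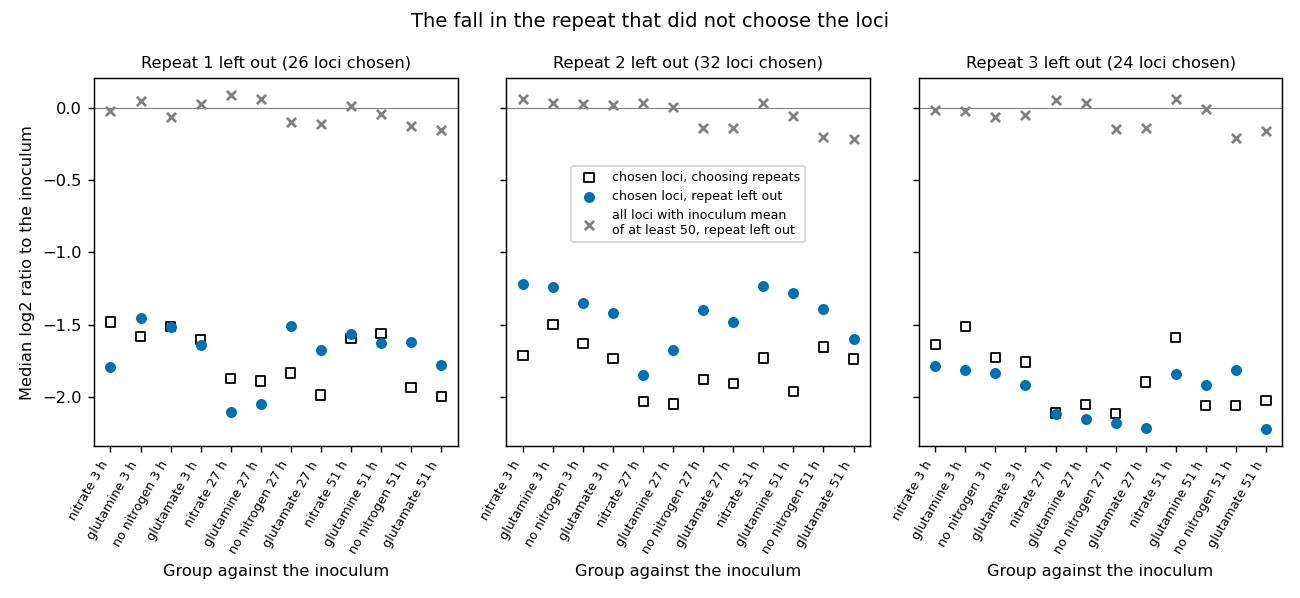
Median log2 ratio to the inoculum of loci chosen by the same rule on 2 repeats, in the choosing repeats (squares) and in the repeat left out (filled points), with all loci of sufficient inoculum level in the repeat left out (crosses); one panel for each repeat left out. Filled points stay between -2.23 and -1.22 in all 12 groups of the 3 panels, and crosses lie near 0.

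After 3 h the medians of the loci stayed low, partly by the choice of loci. At 27 h their median was 4.27-fold below the inoculum in nitrate, 4.15-fold in glutamine, 3.58-fold in glutamate and 3.74-fold without nitrogen. At 51 h it was 3.11-fold, 3.32-fold, 3.41-fold and 3.51-fold below in the same order. These ratios share the inoculum libraries that chose the loci, so they are given with no test. The required fall in nitrate at 3 h and the capped gain to 51 h force every chosen locus below the inoculum in nitrate at 51 h. Of the 54 loci that fell in every medium, the cap left out 9. The condition at 27 h left out 14 that were higher without nitrogen than in nitrate.

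At least 2-fold below the inoculum at 27 h were 28 loci in nitrate, 28 in glutamine, 28 in glutamate and 27 without nitrogen, against 2.13%, 2.36%, 6.79% and 6.55% of the 9347 loci. At 51 h the counts were 26, 25, 25 and 26, against 0.941%, 2.19%, 9.14% and 9.15%. In 27 of the 29 loci all 3 inoculum libraries lay above all 24 libraries of 27 and 51 h, as they did in 1.52% of the 9347. The 9347 loci were not chosen for a fall or for a capped gain. How far the choice set the counts of the 29 was not tested.

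In nitrate and glutamine most of the loci were lower at 27 h than at 3 h, and in nitrate most were higher again at 51 h. The median log2 ratio of 27 h to 3 h was -0.42 in nitrate, with 22 loci below 0. It was -0.53 in glutamine with 26 below 0, -0.34 in glutamate with 19 and -0.16 without nitrogen with 18. The medians of the 9347 loci for the same step were 0.03, -0.01, -0.13 and -0.10, with 46.8%, 50.8%, 58.9% and 56.5% of them below 0. The 19 and 18 of 29 in glutamate and without nitrogen are near those shares. From 27 to 51 h the median was 0.44 in nitrate, 0.20 in glutamine, 0.17 in glutamate and 0.04 without nitrogen. The 9347 loci had medians between -0.05 and -0.03. In the same order 4, 11, 10 and 14 of the 29 loci were below 0, against 55.2%, 55.2%, 53.8% and 54.0% of the 9347. Nitrate at 3, 27 and 51 h was used by the rule, which capped the gain from 3 to 51 h. A ratio of 2 groups that share the 27 h libraries with another ratio is not independent of it, so the fall to 27 h and the rise from it are not separate observations.

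Locus_1854 was the 1 locus that returned to the inoculum level. Without nitrogen at 27 h it held 395, 329.5 and 319 scaled counts, above all 3 inoculum values, and in glutamate 317, 313 and 328. Nitrate and glutamine were lower then, with 197, 133 and 213 and with 193, 194 and 198. At 51 h it held 236, 277 and 310.2 in nitrate, 331, 331 and 443 in glutamine, 356, 356 and 359.9 without nitrogen and 421, 320.2 and 393 in glutamate. The last 3 groups lay wholly above the inoculum.

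Locus_11294 and Locus_7345 were lower still at 27 h. Locus_11294 then held 143, 158 and 91.2 in nitrate, 137, 116 and 133 in glutamine, 262, 176 and 136 without nitrogen and 318, 263 and 174 in glutamate. The inoculum mean was 45.8-fold, 46.6-fold, 32.1-fold and 24.7-fold above these groups. Locus_7345 held 104, 107 and 68.4 in nitrate, 104, 68.0 and 67.4 in glutamine, 157, 131 and 72 without nitrogen and 219, 150.2 and 115 in glutamate.

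At 51 h a single nitrate library was high for both. Locus_11294 held 161, 1567 and 106 in nitrate and Locus_7345 held 159, 1148 and 73.5, so replicate 2 sets both nitrate means. For 3 of the 29 loci that library was at least 2-fold above both others of its group, against 0.107% of the 9347 loci, and the third was Locus_3154, named after its values were seen, with 45.5, 127 and 46.5. Nothing in the labels marks that library.

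**Figure D4:**
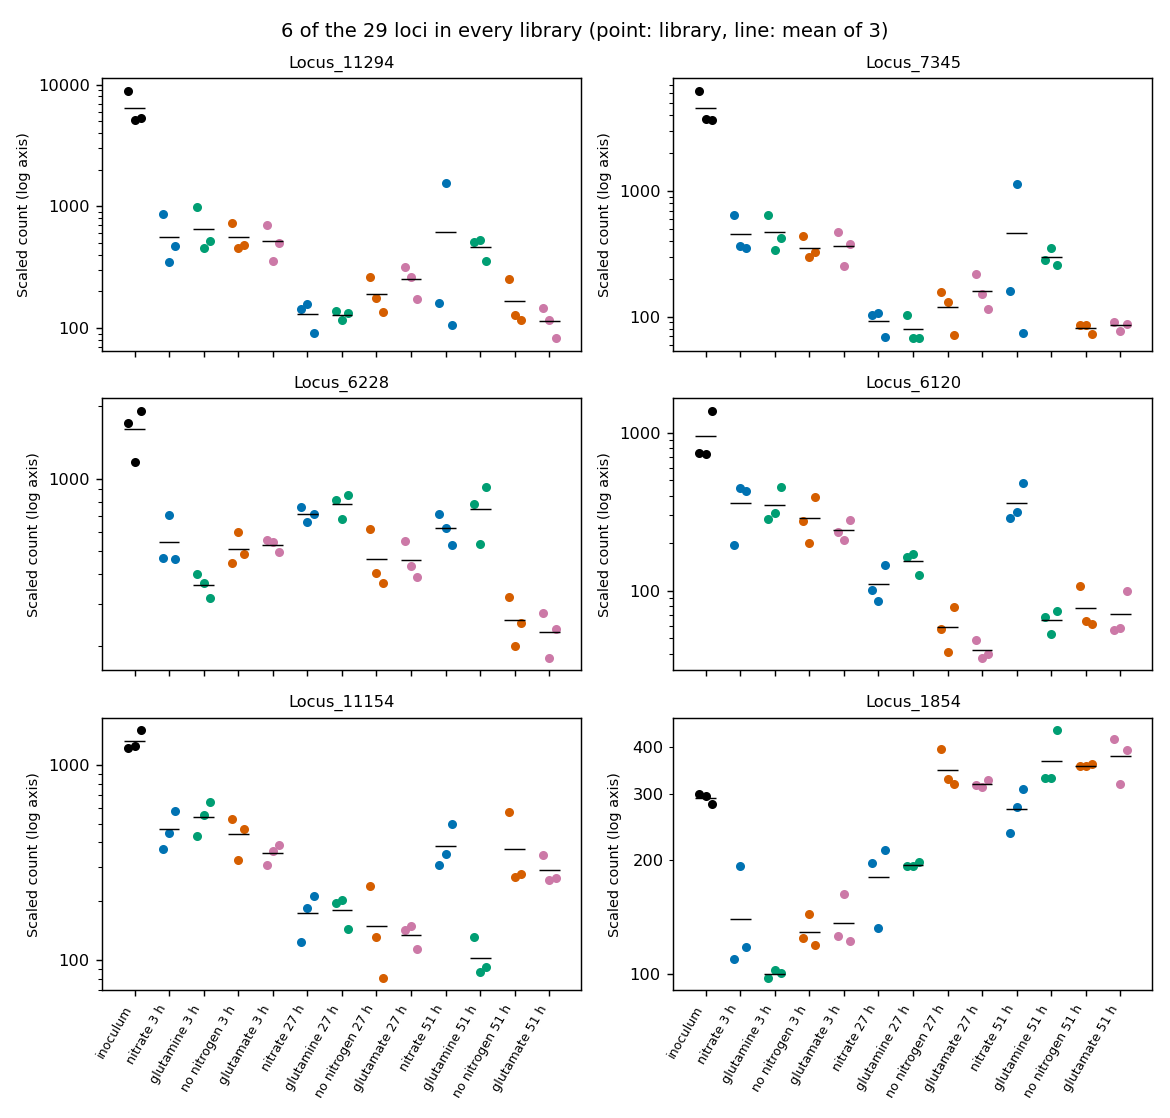
Scaled counts (log axis) of 6 of the 29 loci in each of the 39 libraries, grouped by medium and time, with a line at the mean of 3. All 6 have their 3 inoculum points above all points at 3 h; Locus_11294 and Locus_7345 have 1 high nitrate point at 51 h, and Locus_1854 returns to the inoculum level.

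Tests were possible in the 5 groups that the rule did not use: glutamine and glutamate at 27 and 51 h and no nitrogen at 51 h. They give 6 comparisons of 2 groups, which share libraries, and the difference of a pair of them. All were tested with edgeR's quasi-likelihood test with Benjamini-Hochberg adjustment over all 17569 tested loci, and an adjusted p below 0.05 was a call. The log2 fold changes below are from that fit. In at least 1 of the 6 comparisons 21 of the 29 loci were called, and 8 in none, while 46.1% of all loci tested and 58.4% of the 9347 were called in at least 1.

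Glutamine against glutamate asks whether the level of the loci depended on a nitrogen source that the cells can use. At 27 h 4 of the 29 loci were higher in glutamine and 6 were lower. This is 34.5% of the 29, near the 32.2% of all loci tested that were called, 16.4% higher and 15.8% lower, and below the 43.0% among the 9347 loci, 28.2% higher and 14.8% lower. The median log2 fold change was -0.35 for the 29 loci, -0.10 for all loci and 0.16 for the 9347. The rule used none of these libraries, but it bounded a similar contrast, no nitrogen against nitrate at 27 h. Glutamine lay near nitrate then, at a median log2 ratio of -0.02 for the 29 loci, and glutamate was the control for starvation. How far the choice of loci set the share of calls was not tested.

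Locus_6120 was higher in glutamine at 27 h, with 164, 172 and 125 scaled counts against 48.5, 37.6 and 39.7 in glutamate. The groups did not overlap, and the log2 fold change was 1.85 (SE 0.34, adjusted p = 4.95e-05 by edgeR). Locus_6228 was also higher, with 813, 677 and 854 against 548, 433 and 389.8, a log2 fold change of 0.78 (SE 0.22, adjusted p = 0.00644 by edgeR). Lower in glutamine was Locus_10894, with 34.3, 59.5 and 55 against 77.1, 73.3 and 131. Its log2 fold change was -0.96 (SE 0.29, adjusted p = 0.00919 by edgeR), and the call was lost without glutamine replicate 1 (adjusted p = 0.0725) or without glutamate replicate 3 (adjusted p = 0.164). Locus_1854, whose values are given above, was lower by -0.71 (SE 0.18, adjusted p = 0.00216 by edgeR). Of the 17 alternative fits listed below, 5 lost the call for Locus_10894, 4 for Locus_6228, 3 for Locus_1854 and 0 for Locus_6120.

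At 51 h 6 of the 29 loci were higher in glutamine than in glutamate and 6 were lower, which is 41.4% of the 29 against 26.3% of all loci, 13.1% higher and 13.2% lower, and 33.6% of the 9347, 22.7% higher and 10.8% lower. The median log2 fold change was 0.02 for the 29 loci, -0.06 for all and 0.17 for the 9347. The calls thus went both ways about a median near 0. Without glutamine replicate 3 there were 6 calls in place of 12. Over all loci the calls fell too in that fit, from 2307 higher and 2317 lower to 1034 and 718.

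Locus_11294 was higher in glutamine at 51 h, with 510.2, 528 and 354 scaled counts against 145, 117 and 82.5 in glutamate. All 3 glutamine libraries lay above all 3 glutamate libraries, and the log2 fold change was 2.00 (SE 0.56, adjusted p = 0.00760 by edgeR). Locus_7345 was likewise higher, with 285, 349 and 256 against 90.3, 77.0 and 88.0 and a log2 fold change of 1.80 (SE 0.52, adjusted p = 0.0102 by edgeR). Lower in glutamine was Locus_11696, with 76.0, 61.6 and 82.7 against 349.5, 165 and 149.9, a log2 fold change of -1.56 (SE 0.37, adjusted p = 0.00221 by edgeR). Locus_11154 was lower too, with 130.3, 86.3 and 91.9 against 344, 258 and 264, a log2 fold change of -1.51 (SE 0.31, adjusted p = 4.90e-04 by edgeR). Of the 16 alternative fits, 2 lost the call for Locus_11294, 3 for Locus_7345, and 0 for Locus_11696 and Locus_11154.

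**Figure D5:**
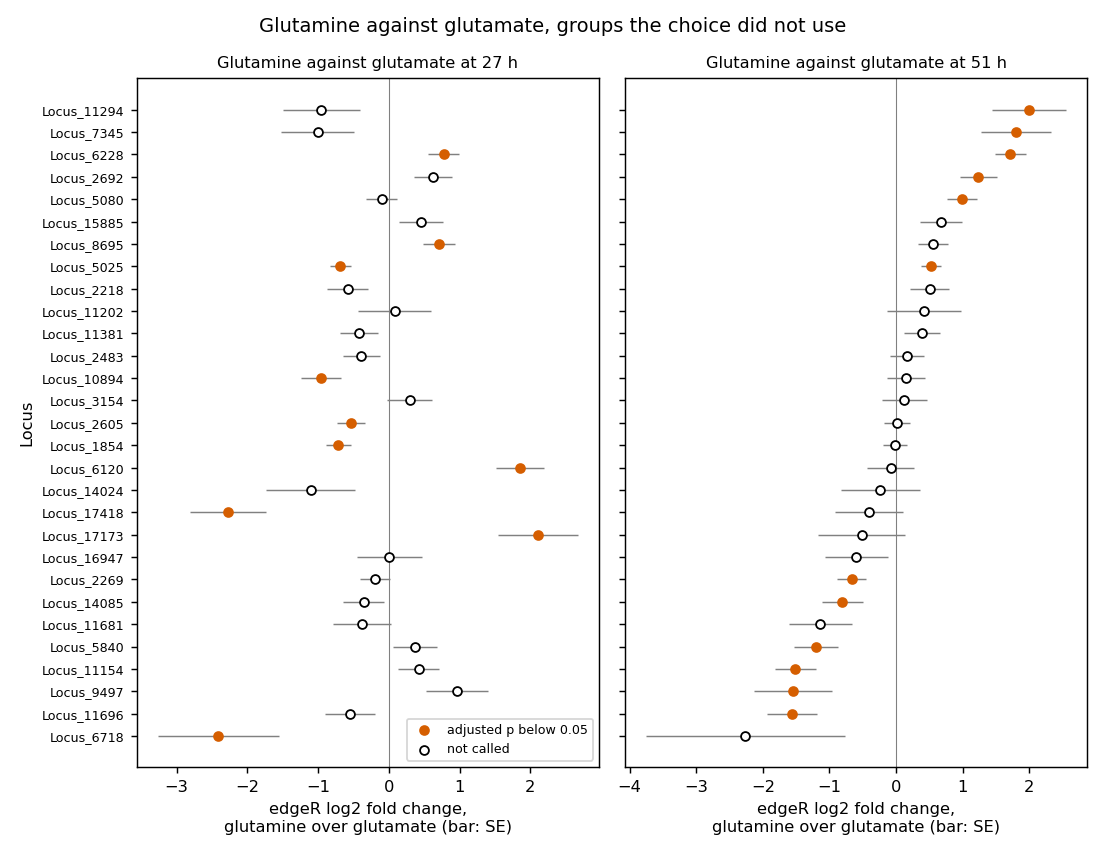
The edgeR log2 fold change of glutamine over glutamate for each of the 29 loci (vertical axis, ordered by the value at 51 h), with its SE as a bar, at 27 h (left) and 51 h (right); filled points have an adjusted p below 0.05. There are 10 filled points at 27 h and 12 at 51 h, on both sides of 0, and Locus_11294 and Locus_7345 lie to the left at 27 h and farthest to the right at 51 h.

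Between the times, 1 locus was called in the same direction at both, Locus_6228, and 1 in opposite directions, Locus_5025. Locus_5025 is named because it was the only one after its values were seen. The same counts over all tested loci are not given here. Whether so few calls at both times were particular to the chosen loci was not tested. Locus_6228 at 51 h held 784, 532 and 925 scaled counts in glutamine and 275, 178 and 235 in glutamate, a log2 fold change of 1.71 (SE 0.23, adjusted p = 1.85e-06 by edgeR). Locus_5025 held 447, 427 and 458 in glutamine and 726, 724 and 689 in glutamate at 27 h, and 744, 783 and 863 against 576, 515 and 580.3 at 51 h. Its log2 fold change was -0.68 (SE 0.15, adjusted p = 6.04e-04 by edgeR) at 27 h and 0.52 (SE 0.15, adjusted p = 0.0107 by edgeR) at 51 h, with no overlap at either time.

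Glutamine against no nitrogen at 51 h shares the glutamine libraries with the previous comparison. Here 7 of the 29 loci were higher in glutamine and 4 were lower, 37.9% of the 29, against 11.1% and 10.1% of all loci, 21.2% together, and 27.5% of the 9347, 19.2% higher and 8.29% lower. The median log2 fold change of the 29 was -0.09. Leaving out glutamine replicate 3 reduced the 11 calls to 4, and leaving out no nitrogen replicate 2 or 3 reduced them to 7. Over all loci the calls fell too, from 1943 higher and 1774 lower to 891 and 569 without glutamine replicate 3. They were 1204 and 1086 without no nitrogen replicate 2, and 1410 and 1172 without replicate 3.

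Without nitrogen at 51 h Locus_7345 held 85.7, 85.6 and 72.8 scaled counts, below all 3 glutamine libraries. Its log2 fold change of glutamine over no nitrogen was 1.87 (SE 0.53, adjusted p = 0.0101 by edgeR), with an adjusted p of 0.0522 by edgeR without no nitrogen replicate 3. Locus_11294 held 253, 129 and 115, with a log2 fold change of 1.59 (SE 0.55, adjusted p = 0.0365 by edgeR). That call was lost without any 1 of the glutamine libraries or without no nitrogen replicate 2 or 3, at adjusted p from 0.0617 to 0.152. Locus_11154 held 570.2, 265 and 274 without nitrogen, the first in a library that stood apart, and was lower in glutamine by -1.80 (SE 0.31, adjusted p = 8.32e-05 by edgeR). Without the 3 libraries that stood apart the value was -1.43 (adjusted p = 9.80e-04 by edgeR). Locus_5840 held 119, 84.2 and 56.0 in glutamine and 279, 185 and 156 without nitrogen. Its log2 fold change was -1.27 (SE 0.34, adjusted p = 0.00683 by edgeR), and without glutamine replicate 3 its adjusted p was 0.119.

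No nitrogen against glutamate at 51 h compares starvation with its control. Of the 29 loci 0 were called by edgeR, 0 had an unadjusted p below 0.05 and 0 were called by DESeq2, while 0.0% of all loci and 0.0% of the 9347 were called by edgeR. For 21 of the 29 loci the whole 95% interval was less than 2-fold from no change. For the other 8 a difference of 2-fold could not be told from none at this precision. The median log2 fold change was 0.06.

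From 27 to 51 h in glutamine 8 of the 29 loci rose and 2 fell, 34.5% of the 29, against 4.66% and 5.03% of all loci, 9.69% together, and 15.4% of the 9347, 6.64% higher and 8.8% lower. The median log2 fold change was 0.20 for the 29 loci, -0.01 for all and -0.06 for the 9347. The 29 loci are more abundant in the inoculum than most, and how far abundance moves these shares was not tested. Without glutamine 27 h replicate 1, 2 or 3 there were 5, 3 or 6 calls in place of 10. Over all loci the calls fell too, from 819 higher and 883 lower. They were 607 and 611, 600 and 746, and 540 and 466 in the same order.

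Locus_7345 rose in glutamine from a mean of 79.8 scaled counts at 27 h to 297 at 51 h, a log2 fold change of 1.89 (SE 0.52, adjusted p = 0.0145 by edgeR). The call was lost without glutamine 27 h replicate 2 or 3. Locus_11294 rose from 128 to 464, a log2 fold change of 1.83 (SE 0.55, adjusted p = 0.0263 by edgeR). Its call was lost without any 1 of the 27 h libraries or without 51 h replicate 1 or 2, at adjusted p from 0.0657 to 0.0879, although all libraries at 51 h lay above all at 27 h. Both loci were still well below the inoculum at 51 h, by 13.6-fold for Locus_11294 and 15.0-fold for Locus_7345. Locus_6120 fell, from the 164, 172 and 125 given above to 67.9, 53.4 and 74.4, a log2 fold change of -1.19 (SE 0.34, adjusted p = 0.0176 by edgeR). That call was lost without 27 h replicate 1 or 2 or 51 h replicate 2. The other locus that fell was Locus_9497, which held a mean of 16.03 and then 4.79 scaled counts and lay below the level set for naming.

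In glutamate over the same interval 0 loci rose and 1 fell, 3.45% of the 29, against 0.125% and 0.114% of all loci, 0.239% together. Among the 9347 loci 0.193% rose and 0.171% fell, 0.364% together. The locus that fell was Locus_6228, with 548, 433 and 389.8 scaled counts at 27 h and 275, 178 and 235 at 51 h. The groups did not overlap, and the log2 fold change was -1.01 (SE 0.23, adjusted p = 0.0395 by edgeR). The call was lost without glutamate 27 h replicate 1 or 2 or glutamate 51 h replicate 2 or 3, the last a library that stood apart. The median log2 fold change of the 29 was 0.21, and 8 had an unadjusted p below 0.05, as did 9.49% of all loci and 12.2% of the 9347.

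The change from 27 to 51 h differed between glutamine and glutamate for 8 of the 29 loci, 27.6%, by a test of the difference itself. In 4 the change in glutamine was the higher, against 2.61% of all loci, and in 4 the lower, against 1.38%, with 3.99% of all loci called in either direction. Among the 9347 loci 4.04% were higher and 2.44% lower, 6.48% together. The median difference was 0.34 for the 29 and -0.04 for all loci. Without the 3 libraries that stood apart, 1 of which enters this comparison, 5 loci were called. Leaving out 1 library gave 3 calls at the fewest, without glutamine 27 h replicate 2. Over all loci 458 were called higher and 243 lower with all libraries. The counts were 386 and 247 without the 3 libraries, and 330 and 195 without glutamine 27 h replicate 2.

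Locus_11294 changed by 1.82, 2.10 and 1.35 on the log2 scale in glutamine in repeats 1, 2 and 3, and by -1.08, -1.11 and -0.99 in glutamate. Each repeat thus rose in glutamine and fell in glutamate, and the difference was 2.96 (SE 0.77, adjusted p = 0.0193 by edgeR). Locus_7345 changed by 1.37, 2.20 and 1.78 in glutamine and by -1.19, -0.88 and -0.35 in glutamate, a difference of 2.81 (SE 0.73, adjusted p = 0.0190 by edgeR). The fall in glutamate by itself was not called for Locus_11294 or Locus_7345 (adjusted p = 0.521 and 0.592 by edgeR). For Locus_11294 the call was lost without glutamine 27 h replicate 2, glutamate 27 h replicate 1 or glutamate 51 h replicate 3, at adjusted p from 0.0505 to 0.0658 by edgeR. For Locus_7345 it was lost without glutamine 27 h replicate 2 or 3, glutamate 27 h replicate 1 or glutamate 51 h replicate 2, at adjusted p from 0.05001 to 0.0736 by edgeR. Both were also lost with limma on TPM and within each run, at adjusted p up to 0.379 for Locus_11294 and 0.378 for Locus_7345, and both kept their direction.

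Locus_6120 went the other way, with -1.16, -1.52 and -0.68 in glutamine and 0.18, 0.52 and 1.13 in glutamate. The difference was -1.93 (SE 0.49, adjusted p = 0.0150 by edgeR). Locus_11154 changed by -0.55, -1.14 and -0.59 in glutamine and by 1.22, 0.76 and 1.15 in glutamate, a difference of -1.93 (SE 0.43, adjusted p = 0.00401 by edgeR). The rise in glutamate by itself was not called for Locus_6120 or Locus_11154 (adjusted p = 0.515 and 0.105 by edgeR). Nor was the fall of Locus_11154 in glutamine (adjusted p = 0.0894 by edgeR). Without the 3 libraries that stood apart the adjusted p by edgeR was 0.0555 for Locus_11294 and 0.0573 for Locus_6120, and without glutamate 51 h replicate 3 alone it was 0.0707 for Locus_6120. Of the 23 alternative fits listed below, 6 lost the call for Locus_6120 and 1 lost it for Locus_11154, and 0 reversed either. Among the other 4 called loci, Locus_5025 had a difference of 1.21 and Locus_9497 of -2.52.

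Against nitrate the later groups can only be described, since nitrate at 27 and 51 h chose the loci. Glutamine at 27 h lay at a median log2 ratio of -0.02 to nitrate, from -0.59 to 0.47, with no locus at 2-fold. Of the 9347 loci only 0.160% were at least 2-fold lower there and 0.150% at least 2-fold higher. Glutamine at 51 h lay at -0.26, from -2.30 to 1.19, with 6 loci at least 2-fold lower and 1 at least 2-fold higher. No nitrogen at 51 h lay at -0.03, with 6 loci at least 2-fold lower, and glutamate at -0.26, with 5. Both counts include Locus_11294 and Locus_7345, whose nitrate means at 51 h are set by replicate 2. In nitrate replicates 1 and 3 Locus_11294 held 161 and 106 scaled counts, against 253, 129 and 115 without nitrogen and 145, 117 and 82.5 in glutamate. Locus_7345 held 159 and 73.5 there, against 85.7, 85.6 and 72.8 without nitrogen and 90.3, 77.0 and 88.0 in glutamate. Locus_6120 showed the spread at 51 h: nitrate held 289.8, 315 and 479 scaled counts, while every library of the other media held 107 or less. Of all 9347 loci, 2.27% were at least 2-fold lower than nitrate in glutamine at 51 h, 12.7% without nitrogen and 12.9% in glutamate. At least 2-fold higher in glutamine at 51 h were 2.16%.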

How the data were processed

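The authors deposited whole-number read counts and TPM values for 18495 loci in 39 libraries, per the file headers. Per the labels' protocols, total RNA was depleted of ribosomal RNA and strand-specific single-end libraries were sequenced in 2 runs. FastQC, STAR, RSEM and edgeR 3.4.0 stand in the submitters' processing notes without roles. No build, annotation or strand setting is given in the sources used here. TPM divides by transcript length and a library total, so a few abundant transcripts move all other values, and reads of near-identical loci may be split. All columns matched a sample title and 0 were left without one.

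Counts were divided by size factors (0.233 to 4.00) computed by the median-of-ratios method of DESeq2. Groups of 3 were averaged and 10 was added before log2 ratios. The DESeq2 1.42.0 package itself was used only for an alternative fit. Tests used edgeR 4.0.16 in R 4.3.3 on the deposited counts with TMM scaling, filterByExpr (926 loci left out) and 1 quasi-likelihood fit of 39 libraries with a mean per group. SEs were derived from the fold change and the F value. The test was run on simulated counts before use. The members and lists were chosen with earlier results of these data known.

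Described loci were the 2 lowest at 3 h, the 2 most abundant by TPM and the 2 nearest each side of the limit. In each tested comparison up to 2 higher and 2 lower called loci were named, those with the largest fold change among loci with a mean of at least 50 scaled counts and no overlap of groups. Other names are marked as chosen later.

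The labels make a replicate number a repeat of the experiment, so numbers pair libraries. Deviations from group means correlated at a mean of 0.192 over 234 same-number pairs and -0.0947 over 468 others. The main fit had no term for the repeat, and the calls with a replicate block are given at the end. Alternatives were other scalings and limits of the rule, RLE factors, no filter, DESeq2, limma 3.58.1 on log2(TPM + 1) or log2(TPM + 0.1), a replicate block, run as a covariate, single runs, the compared groups alone and leaving out libraries. The labels mention duplicate cultures but not how these entered the libraries.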

Additional observations from a re-analysis of the deposited data

Results flagged for a closer look

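The change from 27 to 51 h differed between glutamine and glutamate, by a test of the difference itself within the edgeR fit, for 8 of the 29 loci, and 4 of these are named. The log2 difference, glutamine minus glutamate, was 2.96 for Locus_11294 and 2.81 for Locus_7345, where all 3 repeats rose in glutamine and all 3 fell in glutamate. It was -1.93 for Locus_6120 and -1.93 for Locus_11154, where all 3 repeats fell in glutamine and all 3 rose in glutamate. The change in glutamate by itself was called for none of these 4 loci, nor was the fall of Locus_11154 in glutamine. Without the 3 libraries that stood apart 5 loci were called, with adjusted p by edgeR of 0.0555 for Locus_11294 and 0.0573 for Locus_6120, and leaving out 1 library gave 3 to 8 calls.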

How the results depend on the processing

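The rule gave 29 loci. It gave 17 with library totals and 17 with deposited TPM, of which 16 and 14 are among the 29, 9 with a 3-fold and 105 with a 1.5-fold limit, and 27 to 37 when 1 library was left out. With a replicate block (mean of within-repeat ratios) it gave 28. In the tests the replicate block gave 12 calls for glutamine against glutamate at 27 h, 13 at 51 h, 13 for glutamine against no nitrogen, 0 for no nitrogen against glutamate, 12 and 1 for 51 h against 27 h in glutamine and glutamate, and 12 for the difference of changes, against 10, 12, 11, 0, 10, 1 and 8; with the block the median of no nitrogen against glutamate was 0.00277.

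For glutamine against glutamate at 27 h, limma on log2(TPM + 1) and log2(TPM + 0.1) called 3 and 1, run 1 alone 3 and run 2 alone 3. The median of -0.35 became -0.19 with the compared groups alone, -0.20 and -0.23 with limma, -0.044 in run 1 and -0.16 in run 2. At 51 h limma on log2(TPM + 1) called 7, and the median of 0.02 became -0.71 and -0.85 with limma and 0.18 in run 2. Against no nitrogen limma called 3 and 3 and run 2 called 6, with medians of -0.21 and -0.29 with limma, 0.075 without the 3 libraries that stood apart and 0.12 in run 2, against -0.09. For no nitrogen against glutamate the median of 0.06 became -0.41 and -0.60 with limma and -0.067 without the 3 libraries. For glutamine 51 h against 27 h limma called 0 and 1 and run 2 called 6, with limma medians of -0.068 and -0.10. For glutamate DESeq2 called 2, and the compared groups alone, limma (0 and 0), each run alone and the fit without the 3 libraries called 0. Medians were 0.67 and 0.73 with limma, 0.072 without the 3 libraries, 0.34 in run 1 and 0.093 in run 2. For the difference of changes limma called 1 and 2, the fit without the 3 libraries 5, run 1 0 and run 2 1, with medians of -0.38 and -0.43, 0.12 without the 3 libraries and 0.0084 in run 1. With limma the median of all loci moved too, to -0.78 and -0.92 for glutamine against glutamate at 51 h, where the 7 calls were 0 higher and 7 lower and 65 of all loci were called higher and 5579 lower, and to -0.81 and -0.96 for the difference. In no nitrogen against glutamate it was -0.51 and -0.59, and in glutamate over time 0.50 and 0.58. The cause was not tested.

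Leaving out 1 library gave 7 to 9 calls and medians of -0.49 to -0.11 at 27 h, 6 to 11 and -0.13 to 0.14 at 51 h, and 4 to 10 and -0.13 to 0.15 against no nitrogen. It gave 0 calls and -0.14 to 0.14 for no nitrogen against glutamate, 3 to 9 and 0.12 to 0.33 for glutamine over time, 0 to 1 and 0.071 to 0.31 for glutamate over time, and 3 to 8 and 0.12 to 0.56 for the difference. The difference also fell to 5, 3 or 5 calls without glutamine 27 h replicate 1, 2 or 3, to 4 or 5 without glutamate 27 h replicate 1 or 3, and to 5 without glutamine 51 h replicate 3 or glutamate 51 h replicate 2 or 3. Over 353 combinations of named locus, comparison and setting, 271 kept direction and call, 82 lost the call and 0 changed direction. In fits that left 1 library in a group it was assumed to vary like the others. Within run 1 no fit was made for the 51 h comparisons or for glutamine over time, which would set 1 library against 1. Depth limits loci with few counts, such as Locus_9497 in glutamine, with means of 16.03 and 4.79 scaled counts.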
